A study of Mus musculus with 2 samples.

Results

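A set of 10 genes of the Wnt pathway, of 32285 genes counted in all, was followed through the droplet classes of 2 single-cell libraries from mouse plantaris muscle. They were the ligands Wnt4 and Wnt5a, the receptors Fzd1, Fzd4 and Fzd7, the agonist Rspo3, the secreted modulators Sfrp1, Sfrp2 and Dkk3, and the feedback target Axin2. All 10 were present in both count matrices. The genes were taken as a list by their roles in the pathway, with earlier results of these data known. The droplets were grouped by UMIs (unique molecular identifiers, each standing for a captured RNA molecule) of other marker genes.

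Cells came from plantaris muscles of Pax7rtTA; TRE-H2B-GFP mice, aged 26 weeks, that had drunk doxycycline at 2.0 mg/ml for 2 weeks. In this strain the Pax7 promoter drives the transactivator that turns on a GFP-tagged histone, and both groups carried the alleles and received the drug. The sham mice had the plantaris tendon exposed only, whereas mechanical overload (MOV) removed synergist muscle, and tissue was taken 5 days after surgery. VCAM+ CD31- CD45- SCA1- cells were sorted as muscle stem cells (MuSCs) and captured with a 10x 3′ kit in 1 library per condition. The labels speak of a mouse and the study's methods of several mice per group, and no barcode was tied to an animal.

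Wnt proteins are secreted glycoproteins that bind Frizzled receptors together with LRP or ROR co-receptors, and can stabilise β-catenin, which activates TCF/LEF target genes such as Axin2, or signal without β-catenin. R-spondins strengthen the signal by keeping Frizzled receptors at the membrane, and secreted Frizzled-related proteins (SFRPs) bind Wnt ligands outside the cell. In muscle, ligands from fibres and from stromal cells reach the MuSC beneath the basal lamina, and the pathway is known for roles in quiescence, commitment and differentiation.

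Because each condition was 1 library, no test between conditions was possible, and condition cannot be told apart from mouse, dissociation, library or depth. Levels are given as CPM, the gene's summed UMIs in a class over the class total, times 1e6, with exact Poisson 95% intervals. Ratios are log2 ratios of CPM with exact conditional 95% intervals, and shares of cells carry exact Clopper-Pearson intervals. All of these cover counting error only.

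The sham library held 1100 droplets and 7302661 UMIs, and the MOV library 3854 droplets and 88498487 UMIs. After removal of droplets above 10% mitochondrial UMIs and of called doublets, 734 sham and 2985 MOV droplets remained. Marker gates gave 112 sham and 1474 MOV MuSCs, 1 and 182 myocytes, 493 and 39 fibre droplets, 27 and 448 Pdgfra cells, and 20 and 174 tenocytes. Although the sort was for MuSCs, fibre droplets made up 67.2% of the kept sham droplets and MuSCs 15.3%, against 1.31% and 49.4% in MOV. Pax7 stood at 126 CPM in sham and 78.0 CPM in MOV MuSCs and at 0 in sham Pdgfra cells and tenocytes, Tnmd at 1824 and 1158 CPM in tenocytes, and Ckm at 27500 CPM in sham fibre droplets. The 2 libraries shared 44 barcodes, and the shallower copy held a median of 2.11% of the deeper copy's UMIs. Of the 39 MOV fibre droplets, 16 were such shallower copies, so fibre values are given mainly from sham.

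MuSCs were further divided by markers. Quiescence-marker MuSCs (Chrdl2, Calcr, Heyl or Hey1 positive) numbered 61 in sham and 301 in MOV, and cycling MuSCs (Mki67, Top2a and similar genes) 8 and 635. Matrix MuSCs, which passed a gate on Islr and Gpc3, numbered 1 and 170, and 42 and 368 MuSCs fell in no state. MOV myocytes were 150 early cells and 32 late cells with embryonic or neonatal myosin transcripts. Median depth was 8326.5 UMIs in sham MuSCs and 22367 in MOV MuSCs.

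The RefSeq promoter table (GRCm38.p6) held 6 of the 10 genes. The 250 bases before the RefSeq transcript start are shown for the receptor Fzd1, for Sfrp2, which had no UMI in sham Pdgfra cells or tenocytes and 1308 and 323 in MOV, and for the TCF/LEF target Axin2. The RefSeq starts of Fzd1 and Wnt4 differed from the GENCODE gene bounds given below, so their windows do not end at those bounds. They are on the gene's strand, and capitals mark the TCF/LEF core CTTTGA or its reverse complement TCAAAG. Fzd1 lay at chr5:4758217-4758466 (minus strand), Sfrp2 at chr3:83766071-83766320 (plus) and Axin2 at chr11:108920099-108920348 (plus).
Fzd1: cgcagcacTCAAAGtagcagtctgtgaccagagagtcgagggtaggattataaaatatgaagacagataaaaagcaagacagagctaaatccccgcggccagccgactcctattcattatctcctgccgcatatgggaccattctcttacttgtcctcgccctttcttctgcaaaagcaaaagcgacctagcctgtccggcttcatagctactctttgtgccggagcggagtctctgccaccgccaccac
Sfrp2: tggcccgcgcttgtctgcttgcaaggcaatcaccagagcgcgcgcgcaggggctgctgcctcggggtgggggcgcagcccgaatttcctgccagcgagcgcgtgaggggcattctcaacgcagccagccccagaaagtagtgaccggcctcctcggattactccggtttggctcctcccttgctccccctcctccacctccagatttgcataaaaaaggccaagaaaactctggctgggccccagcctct
Axin2: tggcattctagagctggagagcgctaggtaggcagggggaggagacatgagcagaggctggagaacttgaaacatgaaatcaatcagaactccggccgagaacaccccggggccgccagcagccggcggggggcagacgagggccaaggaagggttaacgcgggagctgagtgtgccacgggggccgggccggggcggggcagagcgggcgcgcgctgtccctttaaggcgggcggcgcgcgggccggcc
Fzd1 held 1 match to the core, on the opposite strand, and the windows of Wnt4, Fzd4, Fzd7, Sfrp2 and Axin2 held 0. Of 32841 windows of this length, 13.8% held a match. The 6 windows held between 12 (Fzd1) and 44 (Wnt4) CpG dinucleotides, against a median of 6 over all windows. A match in these letters is a description of the sequence only.

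**Figure D1:**
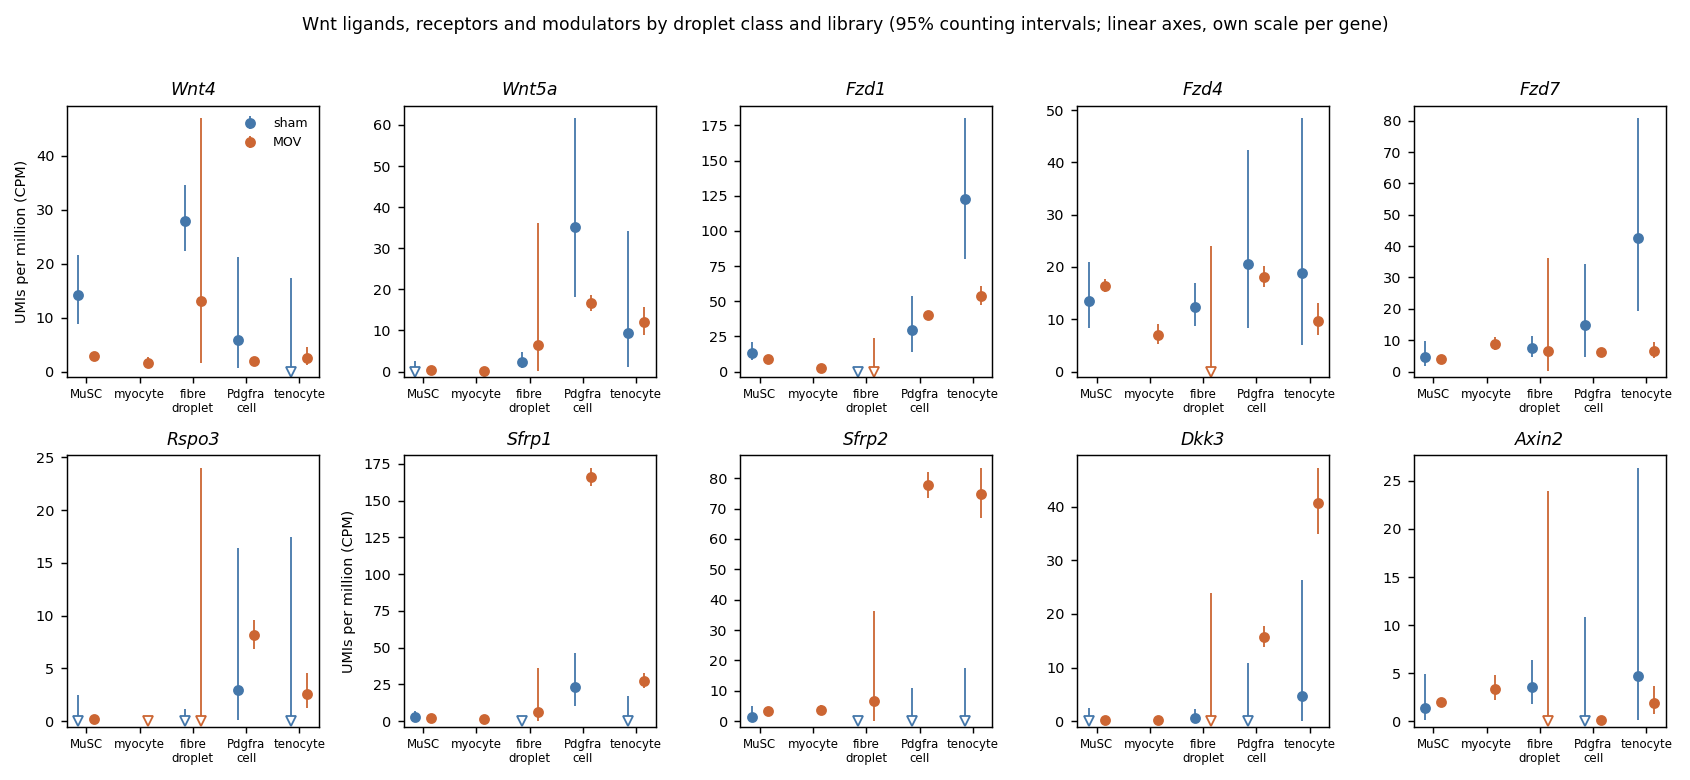
Level of each of the 10 genes (CPM, linear axis scaled per gene) in MuSCs, myocytes, fibre droplets, Pdgfra cells and tenocytes of the sham and MOV libraries. Points are class totals, bars are exact Poisson 95% intervals, open triangles are classes with 0 UMIs, and the single sham myocyte is left out. Among these classes, Wnt5a, Rspo3, Sfrp1, Sfrp2 and Dkk3 sit mainly in Pdgfra cells and tenocytes, Fzd4 is spread, and Wnt4 is highest in sham fibre droplets.

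Wnt4, a ligand described as a fibre-derived signal to MuSCs (chr4:137277489-137299726, plus strand), was found mainly in sham fibre droplets and in very few sham MuSCs. Fibre droplets held 86 Wnt4 UMIs, 28.0 CPM (22.4 to 34.6), spread over 66 of 493 droplets with at most 5 in any of them. Sham MuSCs held 21 UMIs, 14.2 CPM (8.79 to 21.7), and MOV MuSCs 129 UMIs, 2.95 CPM (2.46 to 3.50). Sham Pdgfra cells held 2 UMIs and sham tenocytes 0. MOV Pdgfra cells and tenocytes stood at 1.96 and 2.54 CPM and myocytes at 1.60 CPM. Within sham, the fibre droplets were higher than the MuSCs by 0.98 on the log2 scale (0.28 to 1.74). That ratio was 1.94 with TMM scaling, 2.24 with median-of-ratios scaling, 1.82 without the richest droplet of each class and 3.28 with a mitochondrial limit of 5%.

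By class totals, Wnt4 in MuSCs was lower in MOV than in sham, with a log2 ratio of -2.27 (-2.94 to -1.53). The sham level came from 6 of 112 cells. Of its 21 UMIs, 19 lay in 4 quiescence-marker MuSCs, which held 10, 6, 2 and 1 UMIs. Cells without a single Wnt4 UMI were therefore the great majority in both libraries, and the share of quiescence-marker MuSCs with a UMI was 6.56% in sham (1.82 to 15.95) and 5.98% in MOV (3.58 to 9.29), at median depths of 7819 and 15600 UMIs. Thinned to 2000 UMIs per cell, the shares were 3.28% (2 of 61 cells, 0.400 to 11.4) and 1.99% (6 of 301 cells, 0.735 to 4.29). MOV Pdgfra cells had a Wnt4 UMI in 7.14% of cells unthinned at a median of 37020.5 UMIs and in 0.225% thinned. The thinned intervals of the MuSCs overlap, so a difference in the share of positive cells was not detectable at this depth.

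The Wnt4 ratio also turned on the filter for mitochondrial UMIs. The sham cells with 10, 6 and 2 UMIs had 6.44, 5.05 and 6.55% mitochondrial UMIs, near the sham MuSC median of 5.59%, whereas the MOV MuSC median was 3.12%. With a limit of 5%, sham MuSCs held 2 Wnt4 UMIs in 39 cells, 2.89 CPM (0.350 to 10.4), and MOV MuSCs 2.87 CPM (2.38 to 3.42). Without the richest droplet of each group the log2 ratio was -1.40. In quiescence-marker MuSCs the main ratio was -2.72 (-3.59 to -1.81) beside a median of 0.23 over all genes compared, and it was 0.03 at the 5% limit and -0.9997 with doubled marker limits. The class was not alike in both libraries. Its gate gene Chrdl2 stood at 444.9 CPM in sham and 67.6 in MOV and Calcr at 33.6 and 10.1, whereas the matrix gene Islr stood at 53.4 and 199.7 CPM. The part of this difference in the Wnt4 ratio was not tested. Fibre markers summed to 1.06% of their fibre level in sham quiescence-marker MuSCs, and Wnt4 stood there at 134% of its fibre level. Fibre Wnt4 itself was 28.0 CPM under both limits.

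**Figure D2:**
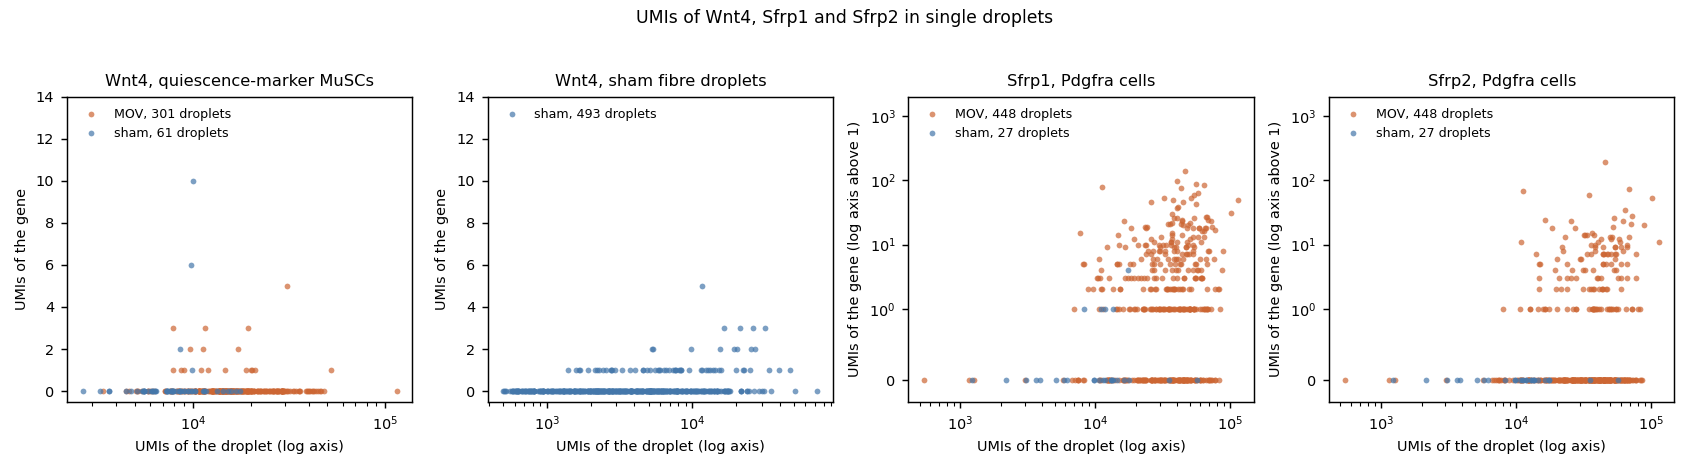
UMIs of Wnt4, Sfrp1 or Sfrp2 in each droplet (vertical axis, logarithmic above 1 for the SFRPs) against the droplet's total UMIs (horizontal logarithmic axis), coloured by library. Sham Wnt4 in quiescence-marker MuSCs rests on 4 droplets, fibre Wnt4 is spread over 66 droplets, and the 27 sham Pdgfra cells hold no Sfrp2 UMI.

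Wnt5a, a ligand best known for signalling without β-catenin (chr14:28504750-28527448, plus strand), was found mainly in the stromal classes. Pdgfra cells held 12 UMIs in sham, 35.3 CPM (18.2 to 61.6), and 279 in MOV, 16.6 CPM (14.7 to 18.6). Tenocytes held 2 and 52 UMIs, 9.45 and 12.03 CPM. The 27 MOV mural droplets held 8 UMIs, 12.6 CPM (5.44 to 24.8), of which 5 lay in 1 droplet. MuSCs held 0 UMIs in sham, which allows up to 2.49 CPM, and 11 UMIs in MOV, 0.251 CPM (0.125 to 0.449). In MOV the Pdgfra cells were higher than the MuSCs by 6.04 on the log2 scale (5.18 to 7.06). The MOV to sham ratio in Pdgfra cells was -1.09 (-1.92 to -0.12). It rested on 1 sham cell with 6 of the 12 UMIs, and without the richest droplet of each library the levels were 18.2 and 16.1 CPM, a ratio of -0.17.

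The 3 Frizzled receptors were distributed differently from each other. Fzd1 (chr5:4753839-4758035, minus strand) was highest in tenocytes among the 5 main classes, with 26 UMIs and 123 CPM (80.3 to 180) in sham and 232 UMIs and 53.7 CPM (47.0 to 61.0) in MOV. Pdgfra cells stood at 29.4 and 39.9 CPM, MuSCs at 13.5 CPM (20 UMIs) and 8.81 CPM (386 UMIs), and MOV myocytes at 2.58 CPM (21 UMIs). The 493 sham fibre droplets held 0 UMIs. With that count set to 3, fibre Fzd1 was 13.8-fold below sham MuSCs, and the counting interval placed it at least 10.25-fold below. On the log2 scale the ratio against 3 counts was -2.83 with TMM and -2.53 with median-of-ratios scaling. Schwann droplets, a class with 9 sham and 72 MOV cells, were higher still at 172 and 156 CPM. Between libraries Fzd1 was lower in MOV tenocytes by -1.20 (-1.78 to -0.55), while the intervals included 0 in MuSCs (-1.26 to 0.11) and in Pdgfra cells (-0.45 to 1.51).

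Fzd4 (chr7:89404355-89413134, plus strand), which also serves as a receptor for the non-Wnt ligand Norrin in vessels, had similar levels in MuSCs and Pdgfra cells. Sham MuSCs held 20 UMIs, 13.5 CPM (8.26 to 20.9), and MOV MuSCs 717 UMIs, 16.4 CPM (15.2 to 17.6). Pdgfra cells stood at 20.6 and 18.1 CPM and sham fibre droplets at 12.4 CPM (38 UMIs), while the 16 MOV endothelial droplets stood at 77.2 CPM (13 UMIs). The MOV to sham ratio in MuSCs was 0.28 (-0.36 to 1.00), and the MOV Pdgfra to MuSC ratio 0.15 (-0.05 to 0.34), so neither pair of neighbours differed beyond counting error. Against sham MuSCs the fibre droplets stood at -0.13 (-0.95 to 0.73), a direction that turned to 0.83 with TMM and 1.13 with median-of-ratios scaling.

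Fzd7 (chr1:59482424-59486955, plus strand), a receptor described for WNT7A in MuSCs, was low in MuSCs of both libraries, with 7 UMIs and 4.73 CPM (1.90 to 9.75) in sham and 169 UMIs and 3.86 CPM (3.30 to 4.49) in MOV. Sham fibre droplets held 23 UMIs, 7.49 CPM. MOV myocytes held 71 UMIs, 8.73 CPM (6.82 to 11.01), a log2 ratio to MOV MuSCs of 1.18 (0.76 to 1.59). Pdgfra cells stood at 14.7 CPM in sham (5 UMIs) and 6.12 CPM in MOV (103 UMIs), and MOV Schwann droplets at 16.2 CPM (10 UMIs, 7.79 to 29.9). In tenocytes Fzd7 was lower in MOV, with 9 UMIs in 7 of 20 sham cells (42.5 CPM, 19.5 to 80.7) and 28 UMIs in 174 MOV cells (6.48 CPM, 4.30 to 9.36), a ratio of -2.72 (-3.84 to -1.45).

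**Figure D3:**
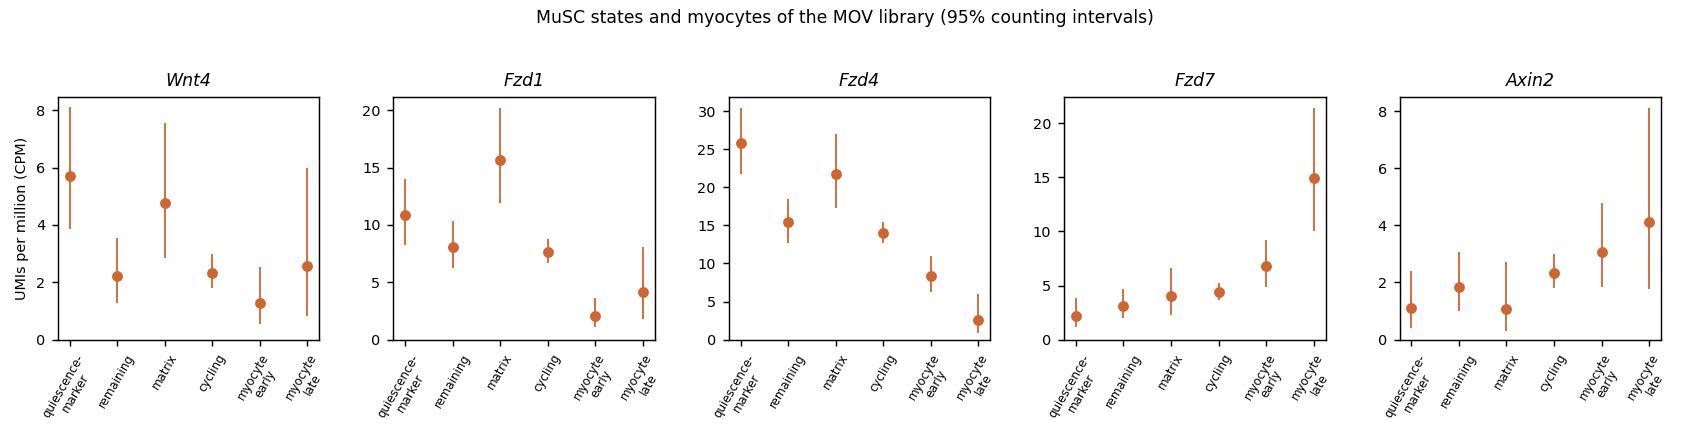
Levels of Wnt4, Fzd1, Fzd4, Fzd7 and Axin2 (CPM, linear axis from 0) in the 4 MuSC states and in early and late myocytes of the MOV library, with exact Poisson 95% intervals. Fzd4 is lowest in late myocytes, at 2.57, where Fzd7 is highest, at 14.9.

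Within the MOV library, where all states came from 1 library, the receptors differed along the myogenic states. Fzd4 stood at 25.8 CPM (21.7 to 30.4) in quiescence-marker MuSCs, 14.0 CPM (12.6 to 15.5) in cycling MuSCs, 8.40 CPM in early and 2.57 CPM in late myocytes. The cycling to quiescence-marker ratio was -0.88 (-1.16 to -0.59), and the late to early myocyte ratio -1.71 (-3.39 to -0.39). Fzd7 had the opposite order, with 2.21 CPM (1.14 to 3.86) in quiescence-marker MuSCs, 4.38 in cycling MuSCs, 6.78 in early and 14.9 CPM (10.0 to 21.4) in late myocytes, with ratios of 0.99 (0.13 to 1.98) and 1.14 (0.40 to 1.85) for the same pairs. Fzd1 was highest in matrix MuSCs at 15.7 CPM (11.9 to 20.2), above cycling MuSCs by 1.04 (0.59 to 1.46) but not beyond counting error above quiescence-marker MuSCs (-0.02 to 1.08), and the myocyte to MuSC ratio was -1.77 (-2.48 to -1.14), or -1.03 with halved marker limits. The cycling ratio of Fzd4 was -0.33 with doubled marker limits, -0.44 with halved limits and -0.37 with every cell weighted equally.

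Wnt4 in MOV was higher in quiescence-marker MuSCs, 5.71 CPM (3.88 to 8.10), than in cycling MuSCs, 2.34 CPM (1.80 to 2.99), a cycling to quiescence-marker ratio of -1.29 (-1.93 to -0.62), or -2.22 with doubled marker limits. The 31 quiescence-marker UMIs lay in 18 of 301 cells with at most 5 in any of them. Matrix MuSCs held 4.78 CPM and did not differ from the quiescence-marker state beyond counting error (-1.18 to 0.63).

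Rspo3, a secreted R-spondin (chr10:29452416-29535867, minus strand), was a Pdgfra-cell transcript in MOV, with 137 UMIs and 8.14 CPM (6.83 to 9.62) in 63 of 448 cells. MOV tenocytes held 11 UMIs, 2.54 CPM. The sham counterpart was 1 UMI in 27 Pdgfra cells, so the MOV to sham ratio was 1.47 with an interval from -1.03 to 6.78. MOV MuSCs held 9 UMIs, of which 7 lay in 1 quiescence-marker cell, and sham MuSCs held 0. The Pdgfra to MuSC ratio in MOV was 5.31 (4.34 to 6.47), and 7.27 without the richest droplet of each class.

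By class totals, Sfrp1 and Sfrp2, which bind Wnt ligands and can block or carry them, were higher in the stromal classes of MOV than of sham. Sfrp1 (chr8:23411502-23449632, plus strand) held 8 UMIs in sham Pdgfra cells, 23.5 CPM (10.2 to 46.3), and 2794 in MOV Pdgfra cells, 166 CPM (160 to 172). The log2 ratio was 2.82 (1.84 to 4.03), and without the richest droplet of each library the levels were 12.4 and 158 CPM. Tenocytes held 0 UMIs in sham and 119 in MOV, 27.5 CPM (22.8 to 32.9). The MOV UMIs lay in 23 of 174 cells, with 22 in 1 cell and 86.6% in the top 10 cells. The MOV level was 1.94-fold higher with the sham count set to 3, and the lower limit of the counting interval was 1.555-fold. That limit takes UMIs as independent and does not cover the uneven spread over cells, so with 20 sham cells it is not a firm minimum. Schwann droplets carried more Sfrp1 than any of the main classes, with 13 UMIs and 248 CPM in sham and 437 UMIs and 710 CPM in MOV.

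Sfrp2 (chr3:83766321-83774316, plus strand) was not seen in the 27 sham Pdgfra cells or the 20 sham tenocytes, where 0 UMIs allow up to 10.8 and 17.4 CPM. In MOV, Pdgfra cells held 1308 UMIs, 77.7 CPM (73.5 to 82.0), and tenocytes 323 UMIs, 74.7 CPM (66.8 to 83.3). With the sham counts of 0 set to 3, these levels were 8.81-fold and 5.27-fold higher than in sham. The lower limits of the counting intervals were 7.16-fold and 4.26-fold. The tenocyte ratio against 3 counts fell to 1.55 on the log2 scale at a mitochondrial limit of 5%. The MOV Pdgfra transcripts were unevenly spread, with 145 of 448 cells positive, 192 UMIs in 1 cell and 44.3% of the UMIs in the top 10 cells, and the level without the richest cell was 66.5 CPM. The tenocyte transcripts were more uneven, with 41 of 174 cells positive, 53 UMIs in 1 cell and 76.8% of the UMIs in the top 10 cells. The tenocyte level without the richest cell was 62.6 CPM. Unlike Sfrp1, summed Sfrp2 gave no difference beyond counting error between MOV tenocytes and Pdgfra cells, with a ratio of -0.06 (-0.24 to 0.12) for Sfrp2 and -2.59 (-2.87 to -2.33) for Sfrp1. Over the alternatives the Sfrp2 ratio changed sign, from -0.27 at a mitochondrial limit of 5% to 0.19 with doubled marker limits, and the Sfrp1 ratio lay at -2.18 with halved and -3.52 with doubled limits.

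Thinned to 2000 UMIs, 21.1% of MOV Pdgfra cells had an Sfrp1 UMI (17.4 to 25.2) and 8.54% an Sfrp2 UMI (6.11 to 11.5), whereas 0 of 26 sham Pdgfra cells had either, which allows a share of up to 13.2%. The thinned Sfrp2 shares were therefore not separable between libraries at this depth, although the summed levels were. Before thinning, 5 of 27 sham Pdgfra cells (18.5%) had an Sfrp1 UMI at a median depth of 11341 UMIs, against 63.8% in MOV at 37020.5. At 4000 UMIs the sham count was 1 of 22 cells (0.115 to 22.8%). Unthinned, 32.4% of MOV Pdgfra cells and 7.12% of MOV MuSCs had an Sfrp2 UMI, at median depths of 37020.5 and 22367 UMIs.

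In MOV MuSCs, Sfrp1 stood at 2.24 CPM and Sfrp2 at 3.47 CPM, which were 1.35% and 4.47% of their levels in Pdgfra cells. The same share was 1.52% for Wnt5a, 2.52% for Rspo3 and 2.03% for Dkk3. The gate list of the Pdgfra cells summed to 2.34% there, a value that includes Dpt, which MuSCs held at 32.1 CPM, while Pdgfra itself stood at 0.776 against 128.7 CPM and Lum at 10.7 against 759 CPM. Sfrp2 stood at 4.83% of its Pdgfra-cell level in cycling MuSCs and 4.75% in myocytes, where the gate list stood at 1.22% and 0.613%. For Sfrp1 the shares in the same classes were 1.23% and 0.741%. Rspo3 was uneven, with 7 of its 9 MuSC UMIs in 1 cell and 0.0457 CPM without that cell. The part of free RNA in these low levels was not tested.

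**Figure D4:**
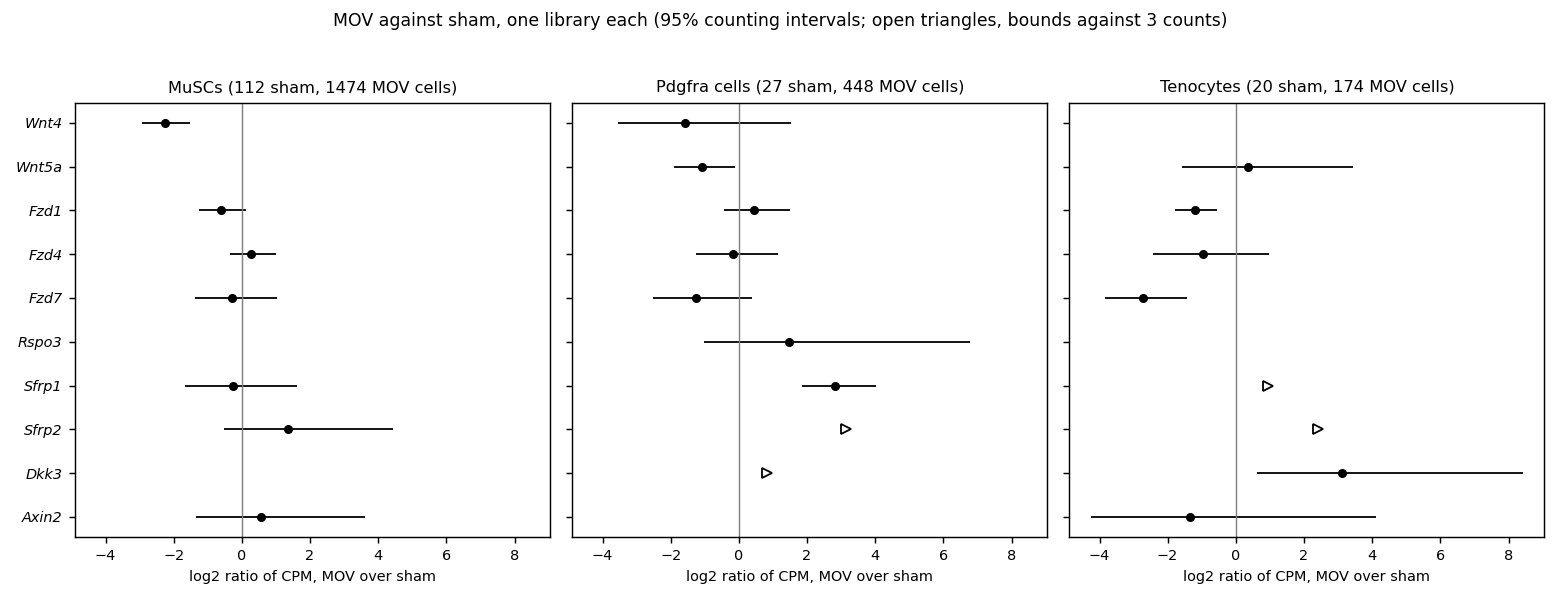
Log2 ratio of CPM, MOV over sham, for the 10 genes in MuSCs, Pdgfra cells and tenocytes, with exact conditional 95% intervals for counting error and a line at no change. Open triangles are ratios against 3 counts where sham held 0 UMIs, not limits of the counting intervals. Genes at or under 3 counts in both groups or with no usable ratio are left blank. Sfrp1 and Sfrp2 lie to the right in both stromal classes, and Wnt4 lies to the left in MuSCs.

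Dkk3, a divergent member of the Dickkopf family (chr7:112116017-112159057, minus strand), was a stromal transcript in MOV. Tenocytes held 176 UMIs, 40.7 CPM (34.9 to 47.2), in 81 of 174 cells, and Pdgfra cells 265 UMIs, 15.7 CPM (13.9 to 17.8), so that tenocytes were higher by 1.37 (1.09 to 1.65). The sham library held 1 UMI in tenocytes and 0 in Pdgfra cells. The tenocyte ratio between libraries was 3.11 (0.61 to 8.42) on that single sham UMI. The Pdgfra level was 1.79-fold higher in MOV with the sham count set to 3, and the lower limit of the counting interval was 1.44-fold.

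Dkk3 also separated the Pdgfra cells of MOV from each other. Of these, 131 carried the matrix-fibroblast marker Lrrc15 without Pi16 and 149 carried Pi16, a marker of universal fibroblasts, without Lrrc15. Dkk3 stood at 34.5 CPM (29.9 to 39.5) in the first and 3.52 CPM (2.09 to 5.57) in the second, a ratio of 3.29 (2.59 to 4.07). Sfrp2 was higher in the Lrrc15 than in the Pi16 cells by 0.80 (0.58 to 1.02) and Sfrp1 by 0.46 (0.31 to 0.60). The 156 cells with neither marker held as much of both, with Sfrp2 at 96.3 CPM (88.2 to 105.0) against 87.6 (80.2 to 95.5) in the Lrrc15 cells and Sfrp1 at 176.9 CPM (165.8 to 188.6) against 181.5 (170.7 to 192.7). Fzd1 and Fzd4 were lower in the Lrrc15 than in the Pi16 cells, by -0.84 (-1.14 to -0.55) and -1.21 (-1.67 to -0.75), and the intervals for Wnt5a and Rspo3 included 0. Rspo3 stood at 12.2 CPM (9.40 to 15.5) in the cells with neither marker, against 5.94 (4.14 to 8.26) and 6.85 (4.77 to 9.53) in the Lrrc15 and Pi16 cells. The split was chosen after seeing the data.

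Axin2, a negative regulator that β-catenin signalling induces and therefore a common readout of it (chr11:108920349-108950783, plus strand), was scarce everywhere. Sham MuSCs held 2 UMIs and MOV MuSCs 87, 1.35 and 1.99 CPM, with a ratio of 0.56 (-1.34 to 3.62). MOV myocytes held 27 UMIs, 3.32 CPM (2.19 to 4.83), above MuSCs by 0.74 (0.06 to 1.38), and sham fibre droplets 11 UMIs, 3.58 CPM. The myocyte UMIs lay in 16 of 182 cells, 77.8% of them in the top 10 cells. Without the richest droplet of each class, MOV myocytes stood at 2.86 CPM and MOV MuSCs at 1.92 CPM. MOV Pdgfra cells held 3 UMIs in 16835257, 0.178 CPM (0.0368 to 0.521), a ratio to MuSCs of -3.48 (-5.78 to -1.88), while tenocytes held 8 UMIs, 1.85 CPM. Cycling MuSCs exceeded quiescence-marker MuSCs by 1.08, with an interval from -0.12 to 2.58.

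Across the members with at least 20 UMIs over both groups, 1 of 7 was at least 2-fold higher in MOV than in sham MuSCs (Sfrp2, on 2 sham UMIs) and 1 of 7 was lower (Wnt4). Over all 12980 genes compared the shares were 11.8% and 9.24%. The members were chosen with earlier results of these data known, so the counts in this paragraph are descriptions only. Among quiescence-marker MuSCs 0 of 3 were higher and 1 of 3 lower (Wnt4), against 21.9% and 8.77% of all 9714 genes. In Pdgfra cells 3 of 9 were higher (Rspo3, Sfrp1 and Sfrp2) and 3 of 9 lower (Wnt4, Wnt5a and Fzd7), against 11.5% and 16.7% of all 11997 genes. The counting intervals of Rspo3, Wnt4 and Fzd7 included 0, and Wnt5a stood at -0.17 without the richest droplets, so of these 6 the ratios of Sfrp1 and Sfrp2 alone kept clear of no change. Between MOV MuSCs and Pdgfra cells, 1 of 10 was higher in MuSCs (Axin2) and 6 of 10 lower, against 15.5% and 19.3% of all genes. Tenocytes had 2 of 7 higher in MOV (Sfrp2 and Dkk3) and 2 of 7 lower (Fzd1 and Fzd7), against 13.2% and 16.2%. The tenocyte class itself differed between libraries, with Scx at 978 CPM in sham and 488.5 in MOV. Lum stood there at 104 and 476.5 CPM and Dpt at 0 and 89.5 CPM. The part of this difference in the tenocyte ratios was not tested.

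A list of 82 other Wnt pathway genes, also chosen with earlier results of these data known, was examined beside the members. Among its receptors the most abundant in MOV MuSCs by CPM were Ryk at 115.2, Lrp6 at 32.4 and Ror1 at 12.85 CPM, and among its ligands Wnt11 at 2.47, Wnt7b at 2.06 and Wnt10a at 2.03 CPM. The 3′ counts are not scaled to transcript length, so each value stands for captured molecules. In MuSCs, 53 were compared between libraries, and 6 were at least 2-fold higher and 5 lower in MOV, against 11.8% and 9.24% of all genes, with a median log2 ratio of -0.0017 beside 0.09 over all genes. The number lower was 14 at a mitochondrial limit of 5%, 10 with every cell weighted equally and 8 with doubled marker limits. Tcf7, a TCF/LEF transcription factor, held 5 UMIs in sham and 528 in MOV, 3.38 and 12.05 CPM, a ratio of 1.83 (0.60 to 3.46). Ptk7, a co-receptor of planar polarity, stood at 3.38 and 9.77 CPM, a ratio of 1.53 (0.30 to 3.16). Myc, a growth regulator and TCF/LEF target, was lower in MOV, 415 against 86.4 CPM (-2.26, -2.39 to -2.14). The R-spondin receptor Lgr4 (-1.60, -2.17 to -0.97), the Wnt5a co-receptor Ror1 (-1.31, -1.74 to -0.84) and the co-receptor Lrp5 (-1.27, -2.01 to -0.44) were lower as well. Cycling cells made up 8 of the 112 sham and 635 of the 1474 MOV MuSCs. The part of this difference in these ratios was not tested. In quiescence-marker MuSCs 7 of 35 pathway genes were at least 2-fold higher and 2 lower in MOV, against 21.9% and 8.77% of all genes. Of the 9 receptors among them 2 were higher and 0 lower, and of the 16 cytoplasmic and nuclear genes 0 were past 2-fold. In the same state Wls, the Wnt export receptor, was higher in MOV, 35.6 against 95.7 CPM (1.43, 0.75 to 2.19), and Myc lower (-2.33, -2.54 to -2.12).

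Between MOV MuSCs and Pdgfra cells, 7 of 60 pathway genes were at least 2-fold higher in MuSCs and 25 lower, against 15.5% and 19.3% of all genes. The number higher was 4 at a minimum of 100 UMIs. Of the 9 other ligands compared, 2 were higher and 7 lower in MuSCs, and of the 7 extracellular inhibitors 0 were higher and 5 lower. Pdgfra cells held the inhibitor Dkk2 at 29.8 against 0.479 CPM in MuSCs (-5.96, -6.66 to -5.33), Sfrp4 at 67.2 against 1.53 CPM (-5.46, -5.84 to -5.10) and the ligand Wnt2 at 18.2 against 0.320 CPM (-5.83, -6.72 to -5.07). MuSCs held more Tcf7, 12.05 against 0.416 CPM (4.86, 3.80 to 6.18), and more of the cyclin gene Ccnd1, 206 against 19.25 CPM (3.42, 3.26 to 3.59). The ligand Wnt7b was 2.06 against 0.0594 CPM (5.11, 2.60 to 10.4), on 90 MuSC UMIs and 1 Pdgfra-cell UMI. None of the 17 cytoplasmic and nuclear genes was at least 2-fold lower in MuSCs, and 1, Tcf7, was higher.

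In Pdgfra cells, 4 of 53 pathway genes were at least 2-fold higher in MOV than in sham and 20 lower, against 11.5% and 16.7% of all genes, with a median of -0.42 beside 0.00 over all genes. The class itself differed between libraries, with Pdgfra at 402.6 CPM in sham and 128.7 in MOV, Lum at 2122 and 759, Dpt at 1005 and 408.6, and the proliferation gene Mki67 at 8.82 and 93.6 CPM. The part of this difference in the ratios of Pdgfra cells was not tested. Sfrp5, of the same family as Sfrp1 and Sfrp2, had the opposite difference, with 171 UMIs and 503 CPM in sham and 572 UMIs and 34.0 CPM in MOV (-3.89, -4.14 to -3.63). Myc (-1.56, -1.82 to -1.28) and Lrp5 (-2.22, -3.26 to -0.96) were lower in MOV. Fzd2 was 106 against 35.6 CPM (-1.57, -2.06 to -1.04), and Wnt6 17.6 against 3.39 CPM (-2.38, -3.59 to -0.88). The inhibitor Tpbg (1.25, 0.27 to 2.47) and Ctnnbip1, which blocks β-catenin from TCF (1.17, 0.18 to 2.39), were higher. Wnt2 stood at 2.94 against 18.2 CPM, on 1 sham UMI (2.63, 0.14 to 7.94). In tenocytes 2 of 43 were higher and 12 lower, against 13.2% and 16.2% of all genes, and Lrp5 stood at 52.0 in sham and 6.01 CPM in MOV (-3.11, -4.18 to -1.95).

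Along the MOV myogenic states, 5 of 51 pathway genes were at least 2-fold higher and 9 lower in cycling than in quiescence-marker MuSCs, against 10.2% and 9.24% of all genes. The ligand Wnt7b was higher, 0.368 against 2.86 CPM (2.96, 1.05 to 6.03). The ligand acyltransferase Porcn (-2.15, -2.78 to -1.52), Ror1 (-1.82, -2.13 to -1.50) and the Dickkopf receptor Kremen1 (-1.03, -1.30 to -0.77) were lower. In myocytes against MuSCs 8 of 55 were higher and 11 lower, against 7.61% and 12.2% of all genes. Kremen2, a Dickkopf receptor (4.01, 2.48 to 5.83), Wnt10a (1.95, 1.47 to 2.43), Wnt9a (2.11, 1.45 to 2.77), Fzd2 (1.55, 1.24 to 1.86) and Porcn (1.55, 1.18 to 1.92) were higher in myocytes, and Ror1 (-2.80, -3.65 to -2.07) and Tcf7l1 (-1.68, -2.36 to -1.08) were lower.

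The genes with the most similar profiles were ranked over 17 class and library groups of at least 20 cells, by Pearson's r of log2(CPM + 1) among 10968 genes. The groups share libraries and depth, so these values are descriptions. Wnt5a was closest to Shox2 (0.940), Ebf1 (0.893) and Twist1 (0.877). Fzd1 was closest to Ptpn13 (0.952), Fzd4 to Fkbp5 (0.848), Fzd7 to Rmnd5b (0.883), Sfrp1 to Efna5 (0.915), Sfrp2 to Gzmd (0.895), Dkk3 to Ebpl (0.867) and Wnt4 to Acyp1 (0.835). Rspo3 and Axin2 held under 200 UMIs in these groups and were not ranked.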

How the data were processed

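Droplets of the 2 libraries were analysed from the count matrices that the authors deposited, whole-number UMI counts per gene and barcode made with Cell Ranger 6.0.0 on mm10 per the labels, without normalization. Reads are counted on the sense strand of the 3′ kit, and antisense genes overlap Wnt5a, Rspo3, Sfrp2 and Axin2. Filters were at most 10% mitochondrial UMIs and removal of doublets, taken from the highest Scrublet score (scanpy 1.11.5) at 0.8% per 1000 cells (4 sham and 75 MOV droplets). Classes were set by summed marker UMIs and CPM, with a myocyte gate first, and cells past gates of more than 1 lineage were left out (12 sham, 60 MOV). Near the MuSC gate, 45 MOV droplets lay within 1.5 times below and 74 above the limit of 100 CPM. Counts were summed per class and library and divided by the class total. Coordinates are from GENCODE on GRCm38.

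With 1 library per condition no edgeR 4.0.16 or DESeq2 1.42.0 test was run, and both gave only alternative scalings (TMM and median of ratios). Genes needed 20 UMIs over both groups and a 2-fold ratio to be counted. A count of 0 was given a floor of 3 counts. Shares of cells were thinned to 2000 UMIs. The interval functions were tested on simulated independent Poisson counts. That test cannot show how the intervals hold for UMIs spread unevenly over cells. Computations used Python 3.11.15, scipy 1.17.1 and R 4.3.3.

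The text names all 10 members, the pathway genes past 2-fold whose interval lay farthest from no change, and the most similar genes. The members and lists were chosen with earlier results of these data known. The MOV to sham ratios in Pdgfra cells and tenocytes, the Schwann, endothelial and mural values and the Lrrc15 and Pi16 split were added after seeing the data. Equal weighting of cells used droplets of at least 1000 UMIs.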

Additional observations from a re-analysis of the deposited data

How the results depend on the processing

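Over 76 results, 683 alternative values were computed, of which 636 lay within the 95% counting interval of the reported value or, for counts of genes, within 1.5 times of it. Another 46 lay outside, and 1 changed the sign of a ratio past 2-fold. The alternatives were mitochondrial limits of 5% and 20%, halved and doubled marker limits, equal weighting of cells, doublets kept, TMM and median-of-ratios scaling and other UMI minimums. Leaving out the richest droplet or the shared barcodes was chosen after seeing the data, and the latter moved none of the 58 ratios. Wnt4, MOV over sham, was -0.0125 in MuSCs at the 5% limit and -1.40 without the richest droplet. In quiescence-marker MuSCs it was 0.0294 at the 5% limit, the sign change, and -0.9997 with doubled limits. Sfrp1 in MuSCs was 1.67 without the richest droplet, where 1 sham UMI remained. Cycling over quiescence-marker MuSCs, Wnt4 was -2.22 with doubled limits, and Fzd4 -0.44 with halved limits, -0.33 with doubled limits and -0.37 with equal weighting. Fzd1 in myocytes over MuSCs was -1.03 with halved limits. Pathway genes at least 2-fold lower in MOV MuSCs numbered 14 at the 5% limit, 8 with doubled limits and 10 with equal weighting, against 5. Those higher in MuSCs than in Pdgfra cells numbered 4 at a minimum of 100 UMIs, against 7. The share with a UMI, unthinned, was 5.98% for Wnt4 in MOV quiescence-marker MuSCs, 63.8% for Sfrp1 and 32.4% for Sfrp2 in MOV Pdgfra cells, and 27.25% and 14.2% for the last 2 at 4000 UMIs. Apart from the alternatives that removed cells, the cause of these shifts was not tested. No paired analysis was possible because each condition was 1 library. The sham classes were small, and at 3 counts the floor was 8.82 CPM in Pdgfra cells and 14.2 CPM in tenocytes.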
